A study of Mus musculus with 2 samples.

Results

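The genes described here fold, import and dispose of secretory proteins in the endoplasmic reticulum (ER). They are 34 of the 46984 features in each count matrix and were picked by gene symbol: 11 chaperones of the ER lumen, 7 disulfide and prolyl folding enzymes, 5 translocation genes, 3 stress sensors or transcription factors and 8 degradation genes. All 34 symbols were found in both matrices.

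A hormone precursor enters the ER through the Sec61 channel while it is being made. There it is bound by chaperones such as BiP (encoded by Hspa5), and its disulfide bonds are formed and rearranged by protein disulfide isomerases. Chains that fail to fold are carried back to the cytosol and degraded, a route called ER-associated degradation. When unfolded protein accumulates, the sensors IRE1 (Ern1), ATF6 (Atf6) and PERK switch on the unfolded protein response, which raises many of these genes. Beta cells make large amounts of proinsulin, a precursor with disulfide bonds, and have a prominent ER.

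The series profiled single pancreatic endocrine cells of 1-month-old mice with the 10x 3′ kit, version 3.1, after sorting for the red reporter tdTomato. The Isl1CKO library came from Neurod1 Cre/+; Isl1 f/f animals, with 2 floxed alleles of Isl1, a transcription factor of islet endocrine cells. The control library came from Neurod1 Cre/+; Isl1 f/+ animals, with the same Cre allele but only 1 floxed Isl1 allele. Cre was driven from the Neurod1 locus, which is active in endocrine cells, and each library pooled cells of 3 animals that were dissociated with actinomycin D, a blocker of new transcription. There was 1 library per genotype, so the differences below could not be checked against replicates and carry no p-values. Values in brackets are 95% intervals that cover counting error only.

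The Isl1CKO library held 86086781 and the control library 48685758 UMIs (unique molecular identifiers, each a tag of 1 captured RNA). Endocrine cells numbered 7597 in Isl1CKO and 3897 in control, with medians of 8492 and 8903 UMIs, and all 13 endocrine markers were detected in both. The libraries shared 7 barcodes among kept cells. The labels give females and males for Isl1CKO and males for control. By Xist and Y-linked UMIs Isl1CKO held 5062 female and 1547 male endocrine cells, and control, against its label, 903 female cells beside 1613 male ones. Isl1 itself stood at 295 (291 to 298) CPM in Isl1CKO endocrine cells and at 363 (356 to 369) CPM in control endocrine cells. The labels do not say which part is floxed, and 3′ counts from outside it would not show its loss, so these levels are no check of the genotype.

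Cells were grouped by hormone transcripts. A cell belonged to a hormone group where exactly 1 hormone (Gcg, Sst, Ppy, Ghrl, or Ins1 plus Ins2) took at least 1% of its UMIs. Cells in which none of these hormones reached 1% are called cells with no hormone, or without hormone. Glucagon-only cells numbered 171 in Isl1CKO and 1535 in control, insulin-only cells 915 and 178, and cells with no hormone 6497 and 88. The last were not free of hormone transcripts. Over the wider set of hormone genes used for the hormone share below, their median share was 0.189% in Isl1CKO and 1.47% in control. Their highest shares were 17.85% in Isl1CKO and 17.75% in control. The groups differed in more than genotype. Hormone genes took a median of 1.73% of UMIs in Isl1CKO glucagon-only cells and 37.0% in control ones, and 9.23% in Isl1CKO insulin-only cells and 67.5% in control ones. Depth differed too. Glucagon-only cells had a median of 13288 UMIs in Isl1CKO and 9359 UMIs in control. Insulin-only cells had 12859 UMIs in Isl1CKO and 19970.5 UMIs in control. The part of depth in the ratios between the libraries was not tested. Of the 171 Isl1CKO glucagon-only cells 104 had Gcg at 1 to 2% of UMIs, and a further 138 Isl1CKO cells lay just under the limit, at 0.5 to 1%.

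Promoter windows of these genes were searched for elements of the unfolded protein response. That response raises many of these genes, as said above, so matches describe the genes and are not an independent result. RefSeq promoter windows, 250 bases before to 50 after the start site in GRCm38.p6, were at hand for 28 of the 34 genes (all but Hyou1, Manf, Sec61a1, Ssr2, Atf6 and Derl1). The ER stress response element ERSE, CCAAT then 9 bases of any kind then CCACG, read on both strands, lay in the windows of 9 of these 28 genes: Hspa5, Hsp90b1, Calr, Canx, Dnajc3, Creld2, Pdia6, Syvn1 and Derl3. It was found in 0.137% of all 27025 genes with a window. ERSE-II, ATTGG then 1 base then CCACG, was found in 2 of the 28, Dnajb11 and Herpud1, and in 0.0444% of all genes. CCACG, which is part of both elements, was in 24 of the 28 and in 35.5% of all genes. The XBP1-type element TGACGTGG was in 0 of the 28 and in 0.714% of all genes. Below are the elements of 7 genes on which the results turn, with 10 bases on either side. Capitals mark the fixed letters of the element, and each sequence is written 5′ to 3′ on the strand that reads CCAAT or ATTGG first.
Hspa5 ERSE, chr2:34772015-34772053, plus strand: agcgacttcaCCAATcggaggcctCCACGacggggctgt
Calr ERSE, chr8:84847065-84847103, plus strand: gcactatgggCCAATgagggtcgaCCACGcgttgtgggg
Dnajc3 ERSE, chr14:118937817-118937855, plus strand: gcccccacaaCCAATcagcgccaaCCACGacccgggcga
Pdia6 ERSE, chr12:17266481-17266519, plus strand: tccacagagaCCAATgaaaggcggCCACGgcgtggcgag
Derl3 ERSE, chr10:75893232-75893270, minus strand: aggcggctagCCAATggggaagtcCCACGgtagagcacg
Dnajb11 ERSE-II, chr16:22857842-22857872, plus strand: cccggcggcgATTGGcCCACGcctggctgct
Herpud1 ERSE-II, chr8:94386367-94386397, plus strand: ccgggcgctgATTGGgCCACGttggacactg

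Hspa5, Dnajc3, Pdia6, Dnajb11 and Herpud1 lie on the plus strand, so their elements read in the direction of the gene. Calr lies on the minus strand and Derl3 on the plus strand, and their elements read against the gene. The Hspa5 element began 65 bases and the Pdia6 element 98 bases before the start site from which the window was taken. The Herpud1 element began 52 bases before it, and that of Dnajb11 began 7 bases after it. A match to these letters is a description of the window and was not tested as a binding site.

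Levels were counted as CPM, the UMIs of a gene per 1000000 UMIs of the summed cells, with totals scaled by TMM, a method that sets most genes level between groups. They are compared for the same gene between groups, not between genes. Summed over all 34 genes the level was 15919 CPM in Isl1CKO glucagon-only cells and 7016 CPM in control glucagon-only cells. In insulin-only cells it was 11267 CPM in Isl1CKO and 14189 CPM in control, and in cells without hormone 10407 and 7045 CPM. The other large control groups lay between, with 10208 CPM in somatostatin-only and 10912 CPM in pancreatic-polypeptide-only cells. Across the 9 groups of at least 50 cells the highest and the lowest sum were thus both in glucagon-only cells, the highest in Isl1CKO and the lowest in control. For 19 of the 34 genes the lowest of the 9 groups was control glucagon-only cells. For 14 genes the highest was control insulin-only cells, and for 11 it was Isl1CKO glucagon-only cells.

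**Figure D1:**
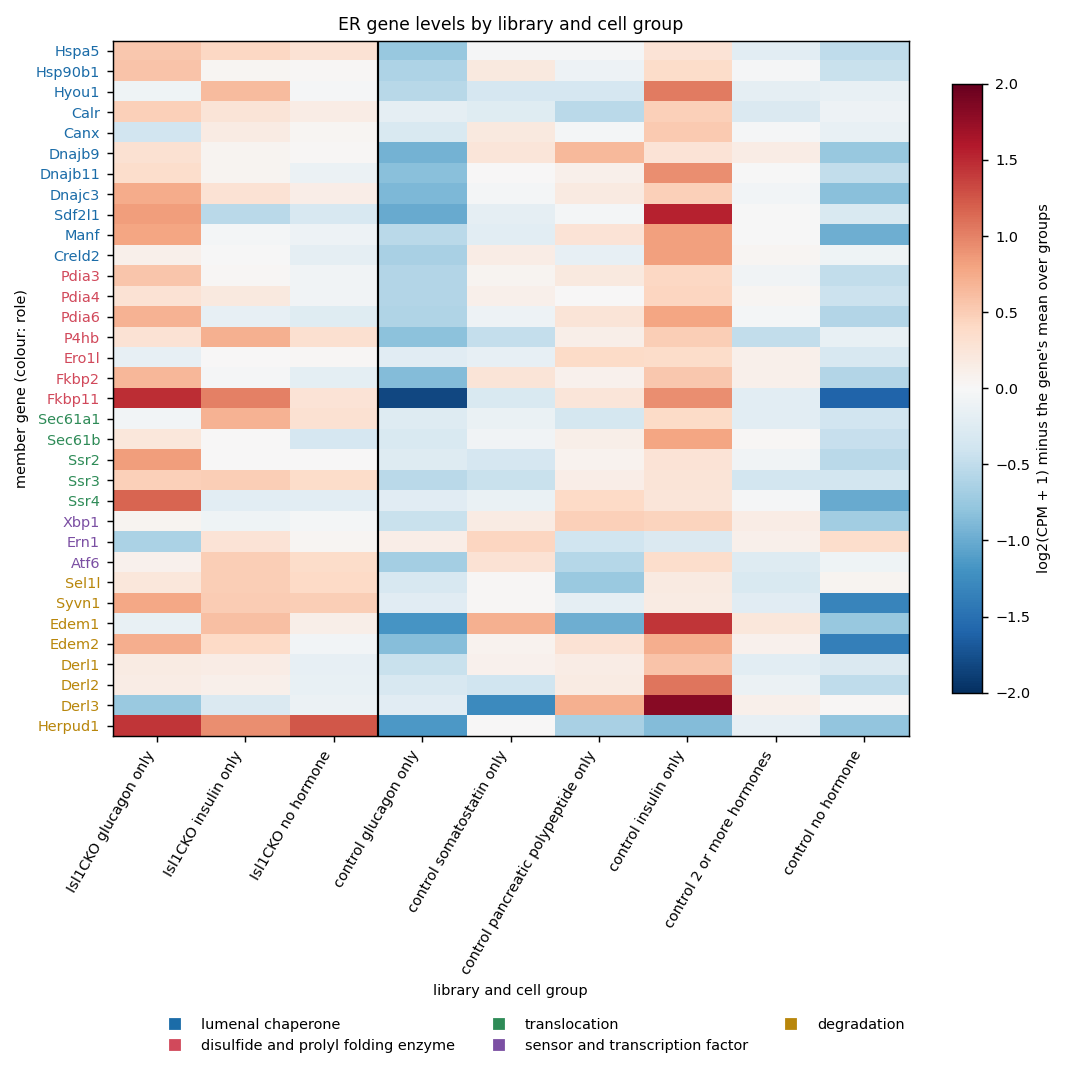
Level of each of the 34 genes (rows, coloured by role) in the 9 groups of at least 50 cells (columns, Isl1CKO left of the line and control right of it), as log2(CPM + 1) minus the gene's mean over the groups. Most rows are blue in control glucagon-only cells (7016 CPM summed) and red in control insulin-only cells (14189 CPM) and Isl1CKO glucagon-only cells (15919 CPM), while Herpud1 is red across all Isl1CKO columns.

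Within the control library, insulin-only cells carried more of these transcripts than glucagon-only cells. A gene was measured in a comparison where either group had at least 5 CPM, and called where the ratio was at least 2-fold and its interval excluded 1. By this rule 21 of the 34 were called higher in insulin-only cells and 0 lower, where 8.79% of all measured genes were called higher and 8.45% lower. The members' median log2 ratio was 1.06, beside 0.03 for all genes. Sdf2l1, a partner of BiP, stood at 267 CPM in insulin-only and 45.0 CPM in glucagon-only cells, a log2 ratio of 2.57 (2.39 to 2.75). Fkbp11, a prolyl isomerase of the ER, stood at 195 and 28.3 CPM (log2 ratio 2.79), and Edem1, which helps extract misfolded glycoproteins, at 23.1 and 2.95 CPM (2.96). Edem1 thus passed the limit of 5 CPM through insulin-only cells alone. The same holds for Derl3, at 7.50 CPM in insulin-only cells. Hspa5 stood at 1242 CPM in insulin-only and 607 CPM in glucagon-only cells, a log2 ratio of 1.03 (0.96 to 1.10). By role, 8 of 11 chaperones, 6 of 7 folding enzymes and 5 of 8 degradation genes were called higher, against 1 of 5 translocation genes, Sec61b. Ern1 alone had a ratio below 0, with 28.3 CPM in insulin-only and 38.3 CPM in glucagon-only cells. In male cells alone the median was 1.09. The count rested on the scaling. On unscaled CPM 5 genes were called higher and 1 lower, where 4.15% of all genes were called higher and 33.1% lower. Then 25 ratios were above and 9 below 0, and the median was 0.28, beside -0.74 for all genes.

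In the Isl1CKO library that difference was not seen. There 0 of the 33 measured genes were called higher in insulin-only than in glucagon-only cells, where 8.98% of all genes were, and 2 were called lower, where 5.18% of all genes were. The median log2 ratio was -0.22, beside -0.0043 for all genes. Sdf2l1 stood at 62.1 CPM in insulin-only and 163 CPM in glucagon-only cells (log2 ratio -1.40), and Ssr4, a subunit of the translocon-associated complex, at 1014 and 2647 CPM (-1.38). Hspa5 stood at 1371 CPM in insulin-only and 1493 CPM in glucagon-only cells. The direction of the median depended on the scaling, since it was 0.17 with hormone UMIs removed from the totals, where the median of all genes was 0.38. Of the 33 genes 22 then had ratios above 0. The difference between the libraries was not tested. Insulin-only and glucagon-only cells were 65.7% and 80% female in Isl1CKO, and in female cells alone the median was -0.28.

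**Figure D2:**
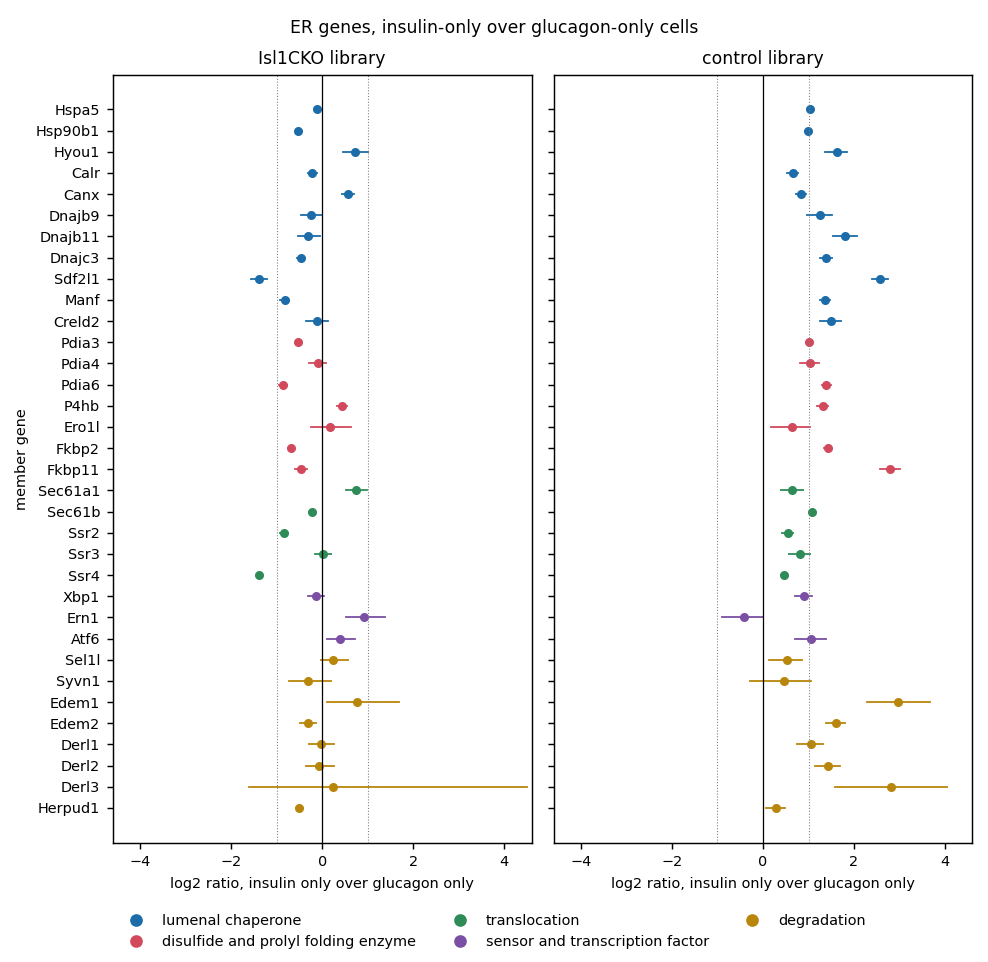
Log2 ratio of insulin-only over glucagon-only cells for each of the 34 genes, in Isl1CKO (left) and in control (right). Points are ratios, lines 95% counting intervals cut at the edge of the axis, and dotted lines mark 2-fold; points gather near a median of -0.22 in Isl1CKO and of 1.06 in control.

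Glucagon-only cells of Isl1CKO carried more of nearly all these transcripts than those of control. Of 33 measured genes 19 were called higher and 0 lower, where 10.1% of all genes were called higher and 9.71% lower, and 31 had ratios above 0. The median log2 ratio was 1.11, beside 0.04 for all genes.

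Among the chaperones 7 of 11 were called higher. Hspa5 (chr2:34771970-34777547 in GRCm38), the main Hsp70 of the ER, stood at 1493 (1443 to 1544) CPM in Isl1CKO and 607 (593 to 621) CPM in control, a log2 ratio of 1.30. Dnajc3, a J-domain co-chaperone of BiP, stood at 529 CPM in Isl1CKO and 168 CPM in control (log2 ratio 1.65), and Sdf2l1 (chr16:17130138-17132383) at 163 and 45.0 CPM (1.86). Hsp90b1, the ER form of Hsp90, and Manf, a secreted and ER-resident survival factor, had log2 ratios of 1.18 and 1.33. Canx, the membrane lectin chaperone, stood at 222 CPM in Isl1CKO and 235 CPM in control, and its interval included 1.

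Of the 7 folding enzymes 5 were called higher, and Fkbp11 (chr15:98724366-98728198) had the largest ratio of any member. It stood at 287 (265 to 310) CPM in Isl1CKO and 28.3 (25.4 to 31.4) CPM in control, a log2 ratio of 3.34 (3.15 to 3.54). Pdia6, a disulfide isomerase, stood at 639 CPM in Isl1CKO and 260.3 CPM in control (log2 ratio 1.30), Pdia3, which acts on glycoproteins, at 1769 and 803 CPM (1.14), and P4hb, the archetypal disulfide isomerase, at 358 and 165 CPM (1.12). Ero1l, an oxidase that recharges these isomerases, stood at 22.6 and 21.5 CPM with an interval that included 1. Of the translocation genes Ssr2, Ssr3 and Ssr4 were called higher, with log2 ratios between 1.04 and 1.40. Sec61a1 and Sec61b, channel subunits, had ratios of 0.21 and 0.54 and were not called.

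Of the 3 sensors and factors 0 were called. Xbp1, the factor that IRE1 activates by splicing, stood at 133 CPM in Isl1CKO and 94.0 CPM in control, and Atf6 at 44.3 and 25.6 CPM. Ern1 went the other way, at 22.2 CPM in Isl1CKO and 38.3 CPM in control (log2 ratio -0.76, -1.24 to -0.37). Counts do not show whether Xbp1 was spliced. Of the degradation genes Herpud1, Edem2, Edem1 and Syvn1 were called higher. Edem1 stood at 7.09 CPM in Isl1CKO (16 UMIs) and 2.95 CPM in control (36 UMIs), so it passed the limit of 5 CPM through Isl1CKO alone. Edem2, a mannosidase-like glycoprotein degradation factor, stood at 145 and 48.2 CPM (log2 ratio 1.59), and Syvn1, the ubiquitin ligase HRD1, at 21.7 and 10.4 CPM (1.08).

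The count rested in part on the scaling. With the UMIs of 8 hormone genes removed from the totals the median log2 ratio was 0.65 and all genes' median -0.42. Then 6 genes were called higher and 1 lower, where 5.10% of all genes were called higher and 20.9% lower. The share of female cells among those of known sex was 80% in Isl1CKO and 44.9% in control. In female cells alone (120 in Isl1CKO, 473 in control) 15 of 33 were called higher and 1 lower, Ern1, with a median of 0.92. Of all genes 12.5% were called higher there and 11.3% lower. The 15 acinar markers summed to 115 CPM in Isl1CKO and 48.5 CPM in control, with Amy2a2, Rbpjl and Ptf1a at 0 in both. Without cells that held any acinar UMI 13 genes were called higher and 1 lower, where 8.56% of all genes were called higher and 10.7% lower. The part of cell sex in the pooled values was not tested.

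**Figure D3:**
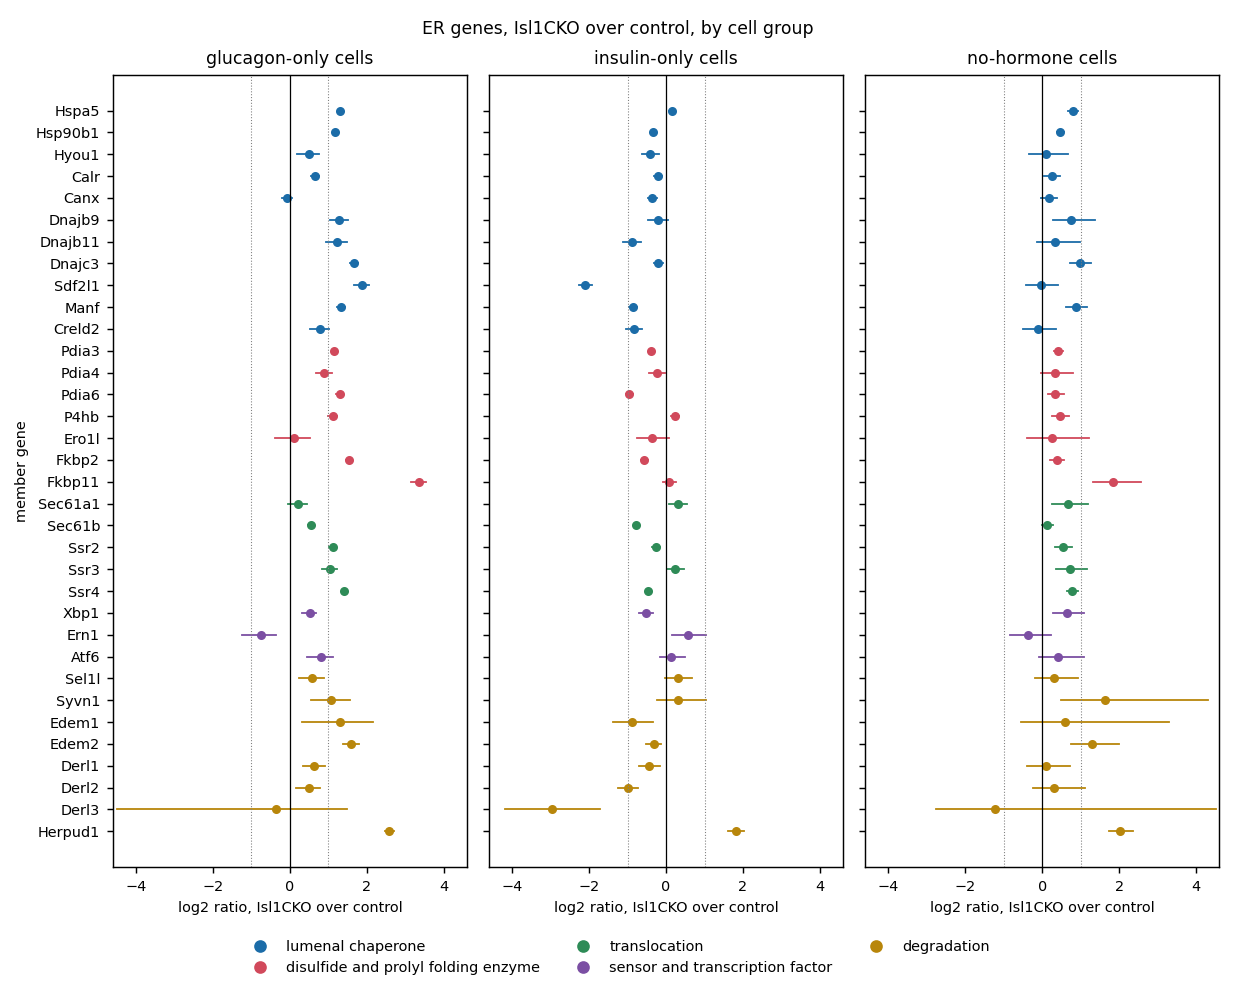
Log2 ratio of Isl1CKO over control for each of the 34 genes in glucagon-only cells (left), insulin-only cells (middle) and cells without hormone (right). Points are ratios, lines 95% counting intervals cut at the edge of the axis, and dotted lines mark 2-fold; medians are 1.11, -0.35 and 0.42, and Herpud1 lies to the right in all panels.

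In insulin-only cells most ratios of Isl1CKO over control lay below 0 relative to other genes, but few genes were called. Only Herpud1 was called higher in Isl1CKO, and 2 of 34, Sdf2l1 and Derl3, were called lower, where 9.54% of all genes were called higher and 6.91% lower. The median log2 ratio was -0.35, beside 0.03 for all genes, and 24 of 34 ratios were below 0. The 2 called lower are a share near that of all genes. Sdf2l1 stood at 62.1 (57.9 to 66.4) CPM in Isl1CKO and 267 (243 to 292) CPM in control, a log2 ratio of -2.10. Derl3, a derlin of the degradation channel, stood at 0.968 CPM in Isl1CKO and 7.50 CPM in control (13 UMIs each). It passed the limit of 5 CPM through control alone. Pdia6 stood at 352 CPM in Isl1CKO and 684 CPM in control (log2 ratio -0.96), Dnajb11, another BiP co-chaperone, at 59.9 and 111 CPM (-0.89), and Sec61b at 904 and 1548 CPM (-0.78).

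Hspa5 and several others did not share this direction. Hspa5 stood at 1371 CPM in Isl1CKO and 1242 CPM in control (log2 ratio 0.14), P4hb at 482 and 409.6 CPM (0.23) and Ern1 at 42.4 and 28.3 CPM (0.56). On unscaled CPM 32 ratios were above and 2 below 0, with a median of 0.78 and all genes' median at 1.16. Hormones took most UMIs of control insulin-only cells, and the direction of the median holds only relative to other genes. In male cells alone (267 in Isl1CKO, 94 in control) 14 ratios were above and 19 below 0, and the median was -0.05. There 1 gene, Sdf2l1, was called, with a log2 ratio of -1.47, where 7.82% of all genes were called higher and 5.59% lower. Female control cells of this group numbered 19, too few for a comparison. The female share of cells of known sex was 65.7% in Isl1CKO and 16.8% in control, and acinar markers summed to 196 CPM in Isl1CKO and 123 CPM in control.

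Cells without hormone were few in control, and 4 of 33 genes were called higher in Isl1CKO: Fkbp11, Syvn1, Edem2 and Herpud1, where 8.15% of all genes were called higher. Of these 4, Syvn1 stood at 4.34 CPM in control, so it passed the limit of 5 CPM through Isl1CKO alone. None were called lower, where 5.37% of all genes were. These cells had medians of 7966 UMIs in Isl1CKO and 5565 UMIs in control. Over all endocrine cells 1 of 33, Herpud1, was called higher and 0 lower, where 6.81% of all genes were called higher and 6.02% lower. The median log2 ratio was 0.13, beside 0.07 for all genes.

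The level of these genes was then set against the share of a cell's UMIs taken by 8 hormone genes. Since hormone UMIs lower every other gene's share, the level was counted per 1000000 non-hormone UMIs. In Isl1CKO insulin-only cells it was 11340 at a hormone share of 1 to 5% (214 cells), 12724 at 5 to 10%, 14437 at 10 to 20%, 16636 at 20 to 30%, 16973 at 30 to 40%, 21090 at 40 to 50% (30 cells) and 28402 (27732 to 29084) at over 50% (17 cells). Each bin was above the one before, with the step between 20 to 30% and 30 to 40% inside counting error. Control insulin-only cells had 22877 at over 50% (135 cells). Of cells of known sex in this top bin 92.3% were male in Isl1CKO and 89.8% in control. Their lower bins held 12 cells or fewer each, with 13892, 14528, 16621 and 17090 at 10 to 20%, 20 to 30%, 30 to 40% and 40 to 50%. Intervals of the libraries overlapped at 10 to 20% and at 30 to 40%, and Isl1CKO lay above control at 20 to 30%, at 40 to 50% and at over 50%. Set against Isl1CKO cells without hormone, Isl1CKO insulin-only cells had 0 of 33 genes called in either direction, where 2.14% of all genes were called higher and 2.07% lower.

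In control glucagon-only cells the summed level changed less along the hormone share. It lay between 9166 and 9973 from 10 to 20% (72 cells) to over 50% (154 cells), below that of insulin-only cells in each of these bins. In pancreatic-polypeptide-only cells it was 13466 at 30 to 40% and 15889 at over 50%, and in somatostatin-only cells 14191 at 10 to 20% and 16020 at 30 to 40%. Across cells, Spearman's rank correlation between level and hormone share was 0.50 in 915 Isl1CKO insulin-only cells, 0.61 in 178 control insulin-only cells, 0.37 in 426 pancreatic-polypeptide-only cells and 0.10 in 1535 control glucagon-only cells. Both quantities share a cell's depth, which rose with the hormone share (rank correlation 0.43 in Isl1CKO insulin-only cells). After thinning each cell to 3000 UMIs the values were 0.46, 0.51, 0.34 and 0.08. With all UMIs as the denominator the correlation was 0.11 in Isl1CKO and -0.61 in control insulin-only cells. The level also rose with a cell's UMIs, at 0.46 in Isl1CKO and 0.49 in control insulin-only cells. That value was 0.39 in pancreatic-polypeptide-only and 0.19 in control glucagon-only cells. In Isl1CKO glucagon-only cells the level had 0.18 with hormone share and 0.52 with UMIs. In Isl1CKO cells without hormone it had 0.20 and 0.43, and with hormone share -0.16 in male and 0.26 in female cells.

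Gene by gene, 24 of 34 had intervals above 0 for the bin at 40 to 50% over that at 1 to 5% in Isl1CKO insulin-only cells, and 1, Herpud1, had one below 0. Of all genes 12.8% had intervals above 0 and 6.30% below 0. The members' median log2 ratio was 0.84, beside 0.19 for all genes. Sdf2l1 had 161 UMIs per 1000000 in the upper and 49.0 in the lower bin (log2 ratio 1.73), Pdia6 842 and 266 (1.67), Sec61b, part of the import channel, 2385 and 781 (1.61), and Manf 790.3 and 264 (1.59). Hspa5 had 2292 and 1489 (0.62). The other 9 had intervals that included 0, among them Fkbp11, Sec61a1, Ern1, Atf6 and Sel1l, the partner of Syvn1. For control glucagon-only cells the highest and lowest bins of at least 20 cells were over 50% and 10 to 20%. These ends differ from those of the insulin-only cells, so the counts are not a like comparison. Between them 4 genes had intervals above and 4 below 0, where 4.38% of all genes had intervals above and 11.6% below 0. The median log2 ratio there was -0.07, beside -0.32 for all genes. The male share of cells of known sex also moved along the Isl1CKO bins, with 16.0% at 1 to 5% and 81.0% at 40 to 50%.

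**Figure D4:**
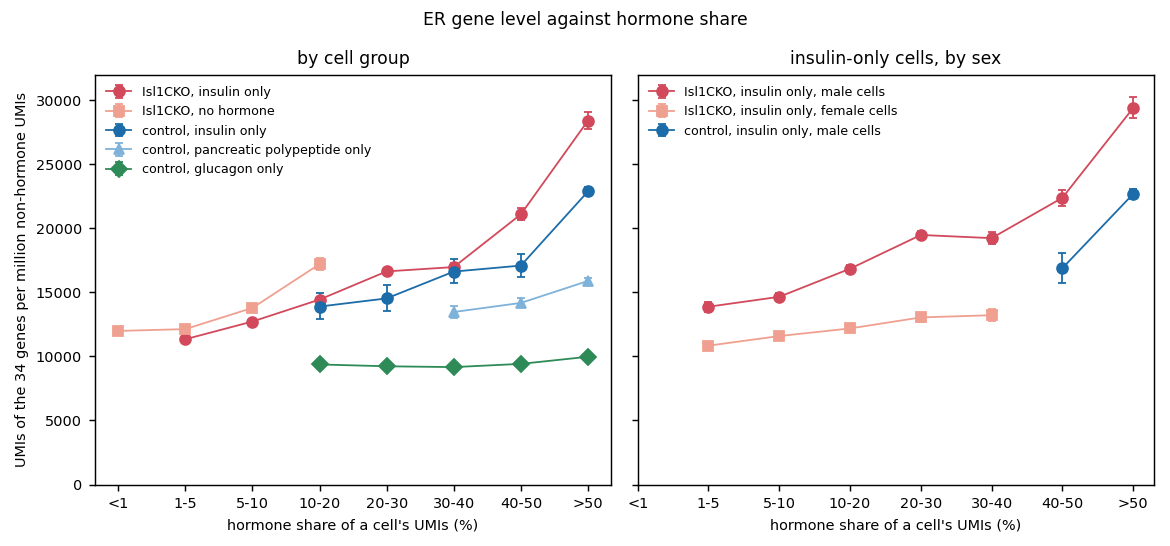
UMIs of the 34 genes per 1000000 non-hormone UMIs (vertical axis) by the hormone share of a cell's UMIs (horizontal axis, bins in %), for cell groups (left) and for insulin-only cells by sex (right), Isl1CKO listed before control. Bars are 95% counting intervals, and bins of fewer than 20 cells (insulin-only groups and sexes: fewer than 5 cells) are left out; Isl1CKO insulin-only cells reach 21090 at 40 to 50% and 28402 at over 50%, and control glucagon-only cells stay between 9166 and 9973 from 10% upward.

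Within each sex the slope remained in Isl1CKO insulin-only cells, at different heights. Male cells had 13878 per 1000000 at 1 to 5% (30 cells) and 22380 at 40 to 50% (17 cells). Female cells had 10839 at 1 to 5% (157 cells) and 13215 at 30 to 40% (20 cells). The rank correlation was 0.57 in 267 male and 0.28 in 512 female cells. In every bin from 1 to 40% the male level was above the female one.

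That gap between the sexes was found in the 3 Isl1CKO groups compared and in none of the 4 control groups. Sex was set for 903 female and 1613 male of 3897 control cells, and for 5062 and 1547 of 7597 Isl1CKO cells. The other cells were left out, and the control label gives males only. How often sex was set wrongly in either library was not tested. In Isl1CKO insulin-only cells the members summed to 13799 CPM in 267 male cells and 9809 CPM in 512 female cells. There 5 of 33 genes were called higher and 1 lower in male cells, where 6.63% of all genes were called higher and 5.26% lower. Pdia6 stood at 518 CPM in male and 229 CPM in female cells (log2 ratio 1.18), Calr, the lumenal lectin chaperone, at 513 and 241 CPM (1.09), Pdia4, also a disulfide isomerase, at 173 and 77.1 CPM (1.17), and Fkbp2, another prolyl isomerase, at 899.7 and 362 CPM (1.31). Sdf2l1 stood at 97.0 CPM in male and 36.0 CPM in female cells (1.43). Of these 5, Calr and Pdia6 have the ERSE letters in their windows, as do 9 of all 28 members with a window.

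Glucagon-only and no-hormone cells of Isl1CKO overlapped with this set. In glucagon-only cells, with 30 male and 120 female cells, 7 of 33 were called higher and 2 lower, where 7.92% of all genes were called higher and 7.1% lower, and the sums were 19727 CPM in male and 13781 CPM in female cells. Pdia6 stood at 1332 CPM in male and 349 CPM in female cells (log2 ratio 1.93), Pdia4 at 245 and 80.9 CPM (1.60), and Ern1 at 42.7 and 14.4 CPM (1.57). Hyou1, a large Hsp70 of the lumen, Calr, Sdf2l1 and Ssr2 were also called higher there. In cells without hormone 4 of 33 were called higher (Calr, Pdia4, Pdia6 and Fkbp2) and 1 lower, where 6.25% and 5.61% of all genes were. The gene called lower was Herpud1 in all 3 groups, with Sel1l as well in glucagon-only cells.

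In control glucagon-only cells the sums were 7190 CPM in 581 male and 7285 CPM in 473 female cells, and 0 genes were called either way, where 0.791% of all genes were called higher and 0.672% lower. Pdia6 stood there at 262 and 271 CPM. Nor was any of the 34 called in control cells with 2 or more hormones, where 0.84% of all genes were called higher and 0.948% lower, in pancreatic-polypeptide-only cells (1.44% and 1.05%) or in somatostatin-only cells (1.14% and 1.4%). Male Isl1CKO insulin-only cells also had more UMIs, a median of 14690 beside 11687 UMIs in female ones, and their median hormone share was 14.3%, beside 7.42% in female ones. Male and female medians were 17220 and 12984 UMIs in Isl1CKO glucagon-only cells. They were 10677.5 and 7673.5 UMIs in Isl1CKO cells without hormone, and 9807 and 9181 UMIs in control glucagon-only cells. The part of depth in the gap between the sexes was not tested. Each sex of a pool of 3 animals is also a set of at most 2 animals where both sexes are present, so sex and animal cannot be told apart.

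**Figure D5:**
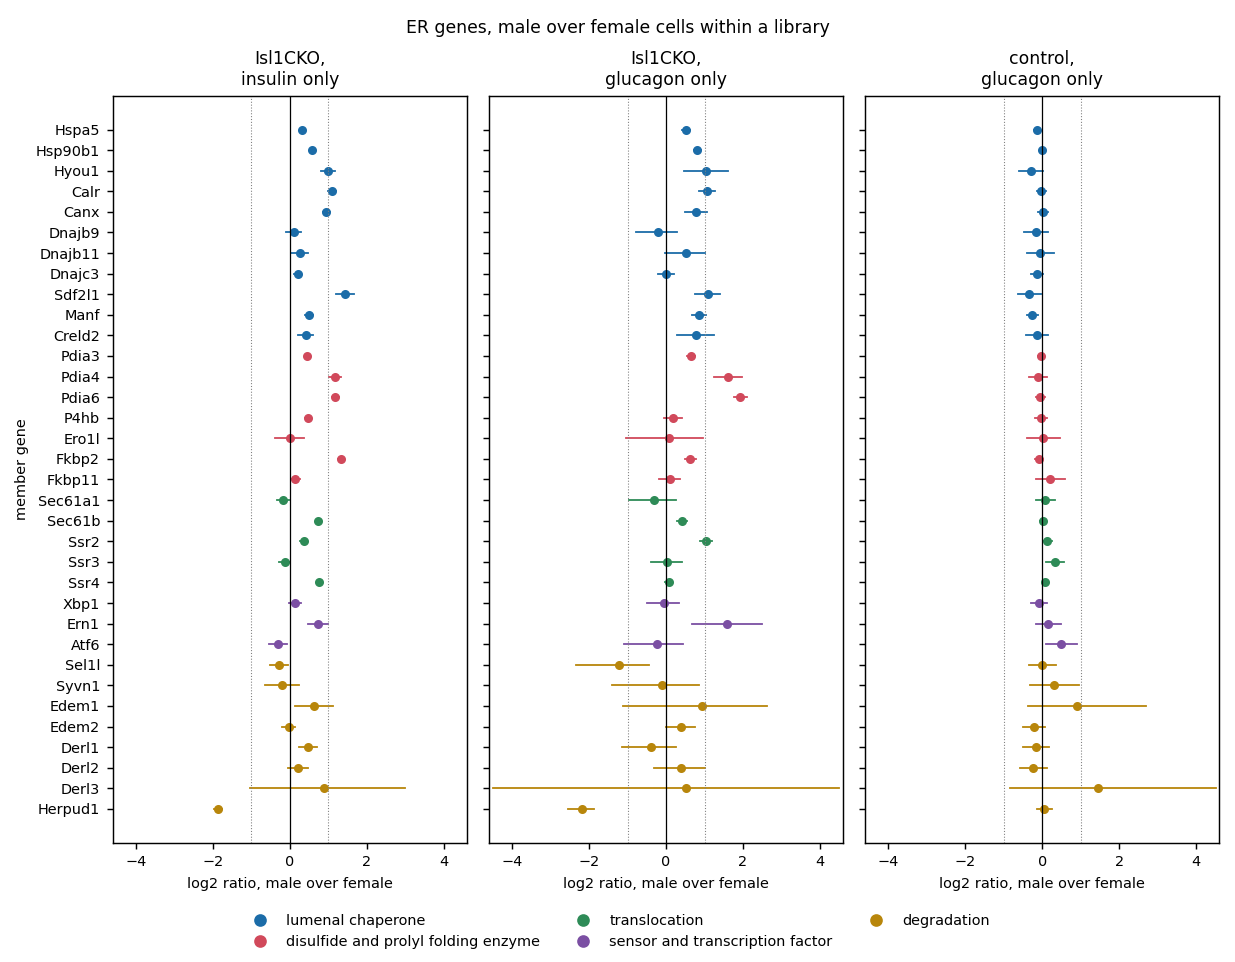
Log2 ratio of male over female cells for each of the 34 genes in Isl1CKO insulin-only cells (left), Isl1CKO glucagon-only cells (middle) and control glucagon-only cells (right). Points are ratios, lines 95% counting intervals cut at the edge of the axis, and dotted lines mark 2-fold; in Isl1CKO Pdia6 lies at 1.18 and 1.93 and Herpud1 at -1.86 and -2.19, and in control both lie near 0.

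Herpud1 (chr8:94386438-94395377), a membrane protein that holds the HRD1 degradation complex together, stood apart from the other members. It was called higher in Isl1CKO in all of the comparisons with control: at 604 CPM in Isl1CKO and 101 CPM in control glucagon-only cells (log2 ratio 2.59), at 427 and 122 CPM in insulin-only cells (1.80), and at 527 and 129 CPM in cells without hormone (2.02). Over all endocrine cells the log2 ratio was 2.49 (2.39 to 2.58) in female cells and 0.21 (0.13 to 0.29) in male cells.

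Within Isl1CKO it stood at 158 CPM in male and 726 CPM in female glucagon-only cells, at 172 and 629 CPM in insulin-only cells, and at 180.3 and 706 CPM in cells without hormone. In control glucagon-only cells it stood at 102 CPM in male and 97.6 CPM in female cells. In each of these Isl1CKO groups female cells were above male ones, and male cells lay closer to control. The transcript was also found outside the endocrine cells. It stood at 673 per 1000000 UMIs in 118 Isl1CKO acinar-like cells, and in droplets of 1 to 100 UMIs, which hold free RNA, at 584 per 1000000 in Isl1CKO and 119 per 1000000 in control. Its ERSE-II letters, shown above, are shared with Dnajb11, which stood at 73.5 CPM in Isl1CKO and 31.7 CPM in control glucagon-only cells, but at 59.9 and 111 CPM in insulin-only cells. Genes with and without ERSE letters had like medians in glucagon-only cells, 1.13 for 8 measured genes with them and 1.14 for 19 without.

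A further 90 genes of the same pathways were followed in 6 lists. In glucagon-only cells of Isl1CKO over control, 8 of 17 measured other folding enzymes were called higher and 1 lower, 4 of 16 other degradation genes higher, 2 of 14 N-glycosylation genes higher and 2 of 16 translocon and signal peptide genes higher, where 10.1% of all genes were called higher and 9.71% lower. Of 8 measured genes of ER stress sensing and processing 1 was called higher, Creb3, an ER-anchored transcription factor, at 93.5 CPM in Isl1CKO and 34.6 CPM in control (log2 ratio 1.44). Erlec1, a lectin of the degradation route, stood at 684 CPM in Isl1CKO and 125 CPM in control (log2 ratio 2.46), Rpn2, a subunit of oligosaccharyltransferase, at 629.5 and 135 CPM (2.22), and Prdx4, an ER peroxiredoxin, at 515 and 117 CPM (2.13). Of 10 measured genes of the PERK and ATF4 arm 3 were called higher and 1 lower. Trib3, an ATF4 target, had 13 UMIs in Isl1CKO and 1 in control (log2 ratio 5.24, 3.40 to 11.5), and it passed the limit of 5 CPM through Isl1CKO alone. Slc3a2, an amino acid transporter chain, stood at 66.9 and 180 CPM (-1.42).

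In insulin-only cells the largest fall was that of Ero1lb, the oxidase that beta cells use to form disulfide bonds in proinsulin. It stood at 56.1 CPM in Isl1CKO and 532 CPM in control (log2 ratio -3.25). Of 17 other folding enzymes 2 were called higher and 1 lower, and of 12 measured genes of the PERK and ATF4 arm 0 higher and 5 lower, where 9.54% of all genes were called higher and 6.91% lower. Chac1, a glutathione-degrading ATF4 target, stood at 1.56 CPM in Isl1CKO (21 UMIs) and 7.50 CPM in control (13 UMIs). Like Phgdh and Nupr1, also called lower in that list, it passed the limit of 5 CPM through control alone. Of 9 measured genes of ER stress sensing and processing 1 was called higher, Mbtps2, a protease that cleaves ATF6, at 16.6 and 6.92 CPM (log2 ratio 1.15). In the translocon, N-glycosylation and other degradation lists 0 genes were called in either direction. Creb3l1, a relative of Creb3, was higher in insulin-only than in glucagon-only cells in both libraries, at 31.3 and 3.54 CPM in Isl1CKO and at 31.2 and 0.819 CPM in control. In both it passed the limit of 5 CPM through insulin-only cells alone.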

How the data were processed

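The values were UMI counts per gene and barcode, as deposited in 1 raw matrix per library. Per the submitters' processing notes the genome was GRCm38.p6 and the tools included STARsolo in STAR 2.7.3a, with Seurat 4.3.0.1; filters applied before deposit are not given in the sources used here. The genes and lists were chosen with earlier results of these data known. Barcodes under 1000 UMIs or 500 genes, or over 15% mitochondrial UMIs, were dropped. Scrublet at an expected rate of 0.05 marked 249 control cells, which were left out, and 0 Isl1CKO cells, so it may not have worked there; at the control threshold it would mark 360. Cells were clustered with scanpy 1.11.5 and leidenalg 0.10.2, and the acinar-like, macrophage-like and low-UMI clusters were left out, leaving 7597 Isl1CKO and 3897 control cells. Cells of a group were summed, since cells are not replicates, and totals were scaled with TMM (edgeR 4.0.16 in R 4.3.3). A split of the cells without hormone into classes was part of the TMM fit and is not reported here.

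Ratios are log2 with 1 count added to each group and exact 95% binomial intervals, levels have exact 95% Poisson intervals, and all of these cover counting error only. Groups of fewer than 50 cells (20 for sexes) were not compared. All 34 members could be named, and of the 6 further lists the 3 highest and 3 lowest called ratios per comparison. Sex was set per cell from Xist and Y-linked UMIs, where a cell had any UMI of one kind and none of the other. Cells with both or neither were given no sex. Comparisons between sexes were added after seeing the data. The symbols Ero1l, Ero1lb and Vimp are those of the files. The ratio and its interval were tested on simulated data. A total of 17 alternative settings were tried, among them DESeq2 1.42.0 size factors.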

Additional observations from a re-analysis of the deposited data

Results flagged for a closer look

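For 5 of the 34 genes Isl1CKO lay on opposite sides of control in the 2 hormone groups: at least 2-fold in one and at least 1.5-fold the other way in the other, with intervals that excluded 1 in both. The log2 ratio of Sdf2l1 was 1.86 in glucagon-only and -2.10 in insulin-only cells. That of Manf was 1.33 and -0.86, of Pdia6 1.30 and -0.96, of Edem1 1.31 and -0.89, and of Dnajb11 1.22 and -0.89. Of the 33 members measured in both groups these 5 were 15.2%, all higher in glucagon-only and lower in insulin-only cells. Of all 9688 genes measured in both groups 0.557% lay this way and 0.898% the other way. Edem1 passed the limit of 5 CPM in glucagon-only cells through Isl1CKO alone (16 UMIs). On unscaled CPM the insulin-only log2 ratio was above 0 for Dnajb11 (0.23), Manf (0.27), Pdia6 (0.17) and Edem1 (0.23), so the opposite sides of these 4 hold only relative to other genes, and it was -0.98 for Sdf2l1. With 1 library per genotype the difference between the groups was not tested.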

How the results depend on the processing

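Counts and medians below are of Isl1CKO over control unless another pair is named, and cover counts that moved by over 1.5 times, medians that changed sign, and some other medians. Percentages in brackets are the shares of all measured genes called in the same direction under the same setting. With unscaled CPM 9 genes were called higher (22.0%) over endocrine cells, with a median of 0.65, and the no-hormone median was 0.07. Insulin-only cells then had 10 called higher (59.9%) and 1 lower (1.72%), the median of log2 ratios being 0.78. Insulin-only over glucagon-only cells had 1 higher (11.0%) in Isl1CKO, and 5 higher (4.15%) and 1 lower (33.1%) in control. The control median was 0.28, and insulin-only over no-hormone cells of Isl1CKO had a median of -0.0030. With hormone genes removed from totals the endocrine median was -0.089 and the no-hormone median 0.05. Glucagon-only cells had 6 higher (5.10%) and 1 lower (20.9%) and insulin-only cells 8 lower (10.7%). Insulin-only over glucagon-only cells of Isl1CKO then had 4 higher (16.5%) and 1 lower (2.91%) with a median of 0.17.

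With DESeq2 size factors 4 were lower (8.02%) in insulin-only cells. A 1.5-fold limit gave 8 higher (17.3%) over endocrine cells and 1 lower (17.4%) in glucagon-only cells. It gave 9 lower (14.1%) in insulin-only and 12 higher (14.1%) in no-hormone cells. Within Isl1CKO it gave 4 higher (15.5%) and 6 lower (11.4%) for insulin-only over glucagon-only cells and 2 higher (5.31%) for insulin-only over no-hormone cells. Without cells that held an acinar marker UMI 1 was lower (10.7%) in glucagon-only and 5 (7.47%) in insulin-only cells. In Isl1CKO insulin-only over glucagon-only cells 2 were then higher (9.51%). In female cells alone 2 were higher (10.4%) over endocrine cells, 1 lower (11.3%) in glucagon-only cells, and 1 higher (8.28%) in Isl1CKO insulin-only over glucagon-only cells. In male cells alone 2 were higher (4.62%) over endocrine cells, with a median of 0.44, and 0 higher (7.82%) and 1 lower (5.59%) in insulin-only cells. At a hormone limit of 5% 2 were higher (7.44%) in no-hormone cells.

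With all UMIs as the denominator the rank correlation between level and hormone share was 0.11 in Isl1CKO insulin-only cells. In control it was -0.42 over endocrine cells, -0.33 in cells with 2 or more hormones, -0.40 in glucagon-only, -0.61 in insulin-only, -0.49 in pancreatic-polypeptide-only and -0.17 in somatostatin-only cells. For the settings whose construction does not show why a value moved, the cause was not tested. The other 176 recomputed counts and correlations kept their direction, the counts within 1.5 times. Comparisons with under 50 cells in a group (20 for sexes) were not run, among them insulin-only cells of females (19 in control) and glucagon-only cells at a limit of 5% (11 in Isl1CKO). No paired analysis was possible because each genotype has 1 library. Depth limits the rare genes: Derl3 had 13 UMIs in insulin-only cells of either library, and small control groups limit the no-hormone comparison.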
